A study of Mus musculus with 20 samples.

Results

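Hypothalamic patterning transcription factors are the genes that lay out the nuclei of the hypothalamus, and many of them stay on in the mature neurons of the nucleus they helped to build. Here 32 such genes, chosen by symbol and matched through their Ensembl gene ID to the GRCm38 annotation, were read from a gene count table of mouse hypothalamus slices. All 32 were found among the 55471 genes of the table. All 32 also passed the filter on low counts, which kept 17893 genes. The 20 libraries came from wild type C57BL/6 mice in 3 groups, and no group carried a transgene or an engineered allele. The controls ate a control diet ad libitum (Ctrl_Ad.lib, n = 7). A second group ate a diet with risperidone, an atypical antipsychotic, for 4 weeks, also ad libitum (RISP_Ad.lib, n = 7). The third ate the risperidone diet under pair feeding, with body weights that did not differ from the controls (RISP_PF, n = 6). Per the labels the material was total RNA from a slice of hypothalamus, sequenced as paired reads. The ages and sexes of the mice, and whether a library held 1 animal or several, are not stated in the labels, so p-values measure the spread between these libraries, which may be in part technical.

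A slice of hypothalamus holds many small nuclei side by side, and the share of each depends on where the slice starts and ends. Each nucleus carries its own combination of these factors. Sim1 and Otp are needed to make the neurosecretory neurons of the paraventricular and supraoptic nuclei, Nr5a1 (steroidogenic factor 1) marks the ventromedial nucleus, and Foxb1 marks the mammillary body at the caudal end. Rax is kept in tanycytes, the glia-like cells lining the floor of the third ventricle. Most of the 32 proteins bind DNA through a homeodomain. Sim1 and Arnt2 are basic helix-loop-helix PAS proteins, Nr5a1 is a nuclear receptor, Fezf1 a zinc finger protein, Tbx3 a T-box protein, Foxb1 a forkhead protein and Sox14 an HMG-box protein. In such bulk tissue, fewer cells of a type and less RNA per cell cannot be told apart.

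Start regions of genes of this class are often rich in CpG, the dinucleotide that carries DNA methylation. RefSeq promoter windows (GRCm38.p6) were matched for 25 of the 32 genes, in 29 windows, and the 250 bases before each start held a median of 14 CpG (1 to 33), against a median of 6 over all 32851 windows of that length. The 7 genes with no window matched were Rax, Nr5a1, Tbx3, Dlx5, Dlx6, Foxb1 and Onecut2. The windows of 5 genes are printed 5′ to 3′ on the gene's strand, with each CpG in capitals, because they overlap no exon of the GENCODE annotation and run from 1 CpG, in 1 of the 2 windows of the arcuate gene Hmx2 (the other has 21), to 24 in a GABAergic gene. Barhl1 and Sox14 are genes of the mammillary and caudal hypothalamus, Dlx2 and Vax1 of GABAergic and preoptic cells, and Hmx2 of the arcuate nucleus.
Hmx2 (chr7:131548507-131548756, + strand, 1 CpG): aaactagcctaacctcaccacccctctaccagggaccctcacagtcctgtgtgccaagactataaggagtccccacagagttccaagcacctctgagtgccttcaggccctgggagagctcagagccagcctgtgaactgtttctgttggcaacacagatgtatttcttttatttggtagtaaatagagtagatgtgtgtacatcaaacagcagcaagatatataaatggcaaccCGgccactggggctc
Barhl1 (chr2:28916669-28916918, − strand, 7 CpG): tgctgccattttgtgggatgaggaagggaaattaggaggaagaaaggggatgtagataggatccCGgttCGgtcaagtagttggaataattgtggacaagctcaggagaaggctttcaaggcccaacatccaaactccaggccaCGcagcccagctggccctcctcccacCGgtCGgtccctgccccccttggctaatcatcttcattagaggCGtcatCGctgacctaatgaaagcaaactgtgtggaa
Vax1 (chr19:59170398-59170647, − strand, 11 CpG): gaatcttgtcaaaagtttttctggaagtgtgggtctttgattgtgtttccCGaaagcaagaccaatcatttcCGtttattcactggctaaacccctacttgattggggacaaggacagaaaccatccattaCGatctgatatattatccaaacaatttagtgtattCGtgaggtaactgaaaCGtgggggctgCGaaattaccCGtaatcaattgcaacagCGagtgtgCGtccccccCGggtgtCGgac
Sox14 (chr9:99876171-99876420, − strand, 23 CpG): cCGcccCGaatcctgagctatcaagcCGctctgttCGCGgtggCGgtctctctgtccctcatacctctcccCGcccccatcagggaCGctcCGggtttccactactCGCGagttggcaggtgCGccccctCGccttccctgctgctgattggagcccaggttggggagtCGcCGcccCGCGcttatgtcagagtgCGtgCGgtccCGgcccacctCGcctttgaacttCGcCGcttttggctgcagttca
Dlx2 (chr2:71546755-71547004, − strand, 24 CpG): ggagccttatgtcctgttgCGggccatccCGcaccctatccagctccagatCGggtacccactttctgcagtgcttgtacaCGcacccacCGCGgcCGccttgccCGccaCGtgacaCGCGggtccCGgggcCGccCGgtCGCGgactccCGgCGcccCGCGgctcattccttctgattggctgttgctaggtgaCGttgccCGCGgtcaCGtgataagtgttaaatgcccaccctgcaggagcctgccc

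Both strands of the windows were searched for TAATTA, a core that homeodomain proteins bind, and for TATAAA, the TATA box (the 2 motifs can share at most 2 letters). TAATTA was in the window of 0 of the 25 genes, against 4.84% of all windows. TATAAA was in the windows of 2 of the 25, Hmx2 and Sim1, against 12.4% of all windows. A gene was counted if any of its windows held the motif, whereas the shares over all windows are per window. Neither difference was tested, and 25 genes are few for such shares. The Hmx2 window is the one printed above. A match describes these letters and is not a measured binding site.

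Total counts ran from 17316043 to 18606543 in 19 libraries and were 9748005 in ad libitum library 3, where 1 gene, CT010467.1, took 16.6% of counts (the top gene took 2.1 to 3.85% elsewhere). Ad libitum library 1 stood apart in its make-up. A list of 10 cortex and hippocampus genes, among them Slc17a7 and Tbr1, summed to 913 CPM there (CPM is the count of a gene relative to the scaled total of its library) and to 20.6 to 97.6 in the other 19 libraries, with ad libitum library 2 at 97.6 and ad libitum library 5 at 50.6. Each of the 10 genes had counts in at least 1 library. A list of 4 oligodendrocyte genes summed to 2920 CPM in library 1 against 5430 to 8900 elsewhere, and a list of 4 neuron genes to 3300 against 1930 to 2360. Of the 32 patterning genes, 17 had their lowest value of all 20 libraries in library 1, and their median log2 difference from the other 19 libraries was −0.52. The counts of genes passing and many of the fold changes are therefore given with and without that library. Fold changes that name no omitted library are over all 20.

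**Figure D1:**
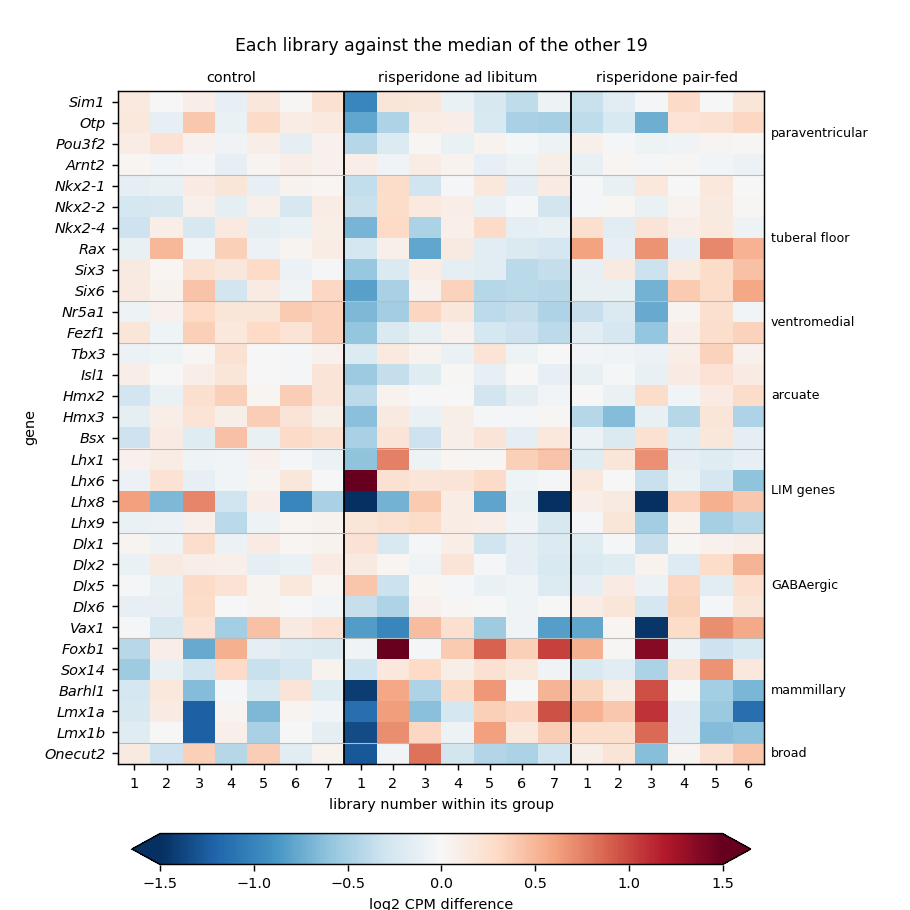
Each tile is the log2 CPM of a gene in a library minus its median over the other 19 libraries (red higher, blue lower; the colour scale ends at 1.5 and values beyond it take the end colour). Rows are the 32 genes in role groups and columns the libraries of the 3 groups. Ad libitum library 1 is blue in most rows and red for Lhx6, and Foxb1, Barhl1, Lmx1a and Lmx1b are red together in ad libitum library 2 and pair-fed library 3.

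Genes of every nucleus on the list were read in every group. Compared per kilobase of merged exons, the level in controls was highest for Arnt2, the partner protein of Sim1, at 41.2 CPM per kb, followed by Otp at 15.2, Fezf1 at 13.2, Nkx2-1 at 10.6, Isl1 at 8.23 and Dlx1 at 7.98. The lowest were Lhx8 at 0.249, Rax at 0.459, Lhx9 at 0.685, Onecut2 at 0.836 and Barhl1 at 0.925. The markers that define hypothalamic tissue were thus read in all 20 libraries. Nkx2-1, required to form the tuberal hypothalamus, had at least 174 counts in every library, and Sim1 had at least 100. Lhx8, a gene of the preoptic area and neighbouring basal forebrain, was the single gene with a library at 0 counts: ad libitum library 7, where a count of 0 allows up to 0.169 CPM by counting error alone. Pair-fed library 3 had 0.054 CPM of Lhx8 and ad libitum library 1 had 0.121, while the control libraries lay between 0.284 and 1.1.

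**Figure D2:**
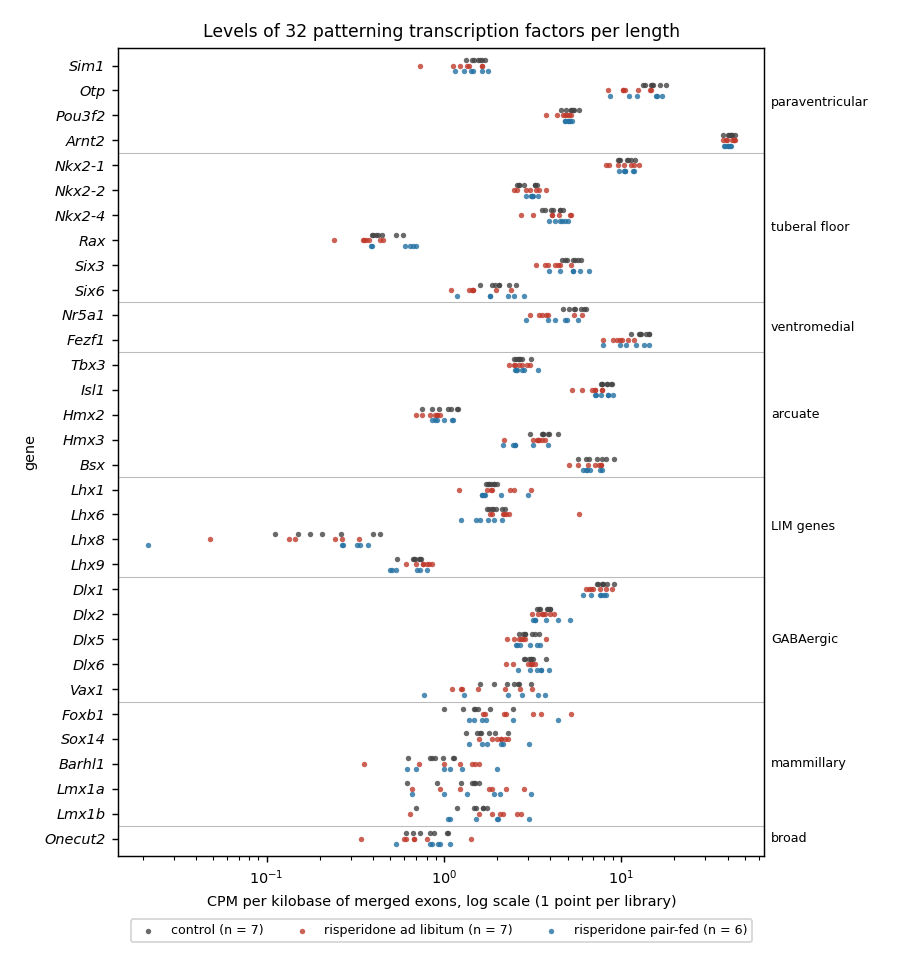
Each point is 1 library, placed by the CPM per kilobase of merged exons of a gene on a log axis, with groups in 3 colours; the Lhx8 value of 0 in ad libitum library 7 cannot be drawn. Genes are ordered by role. Levels run from about the Lhx8 mean of 0.249 in controls to the Arnt2 mean of 41.2, and the groups overlap for each gene.

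No patterning gene passed the test in any of the 3 comparisons. With edgeR's quasi-likelihood F test and Benjamini-Hochberg adjustment over all 17893 genes, 0 of 32 had an adjusted p under 0.05 on the risperidone diet ad libitum against control (0.0615% of all genes did), 0 of 32 pair-fed against control (0.486%), and 0 of 32 pair-fed against ad libitum (0.397%). The smallest adjusted p values were 0.134 for Fezf1, 0.278 for Hmx3 and 0.112 for Rax in the same order. At an unadjusted p under 0.05 there were 10 of 32 (13.1% of all genes), 2 of 32 (6.66%) and 7 of 32 (13.5%). With DESeq2 the counts of adjusted p under 0.05 were 1, 0 and 0, and with limma's voom weights 0, 1 and 0. Groups did not separate without overlap for any of the 32 in any comparison, against 0.33%, 1.2% and 0.632% of all genes.

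Most of these genes had lower means on the risperidone diet ad libitum, whereas the caudal ones had higher means. Ad libitum against control, 11 of 32 had a positive and 21 a negative log2 fold change, with a median of −0.12, against 0.01 over all genes tested. The 10 with an unadjusted p under 0.05 were Foxb1 and Lhx6 on the higher side and Otp, Pou3f2, Six3, Six6, Nr5a1, Fezf1, Isl1 and Hmx2 on the lower side. Pair-fed against control, 18 were positive and 14 negative around a median of 0.00. Pair-fed against ad libitum, 22 were positive and 10 negative, with a median of 0.08. The comparisons share libraries, so their values are not independent of each other. Without ad libitum library 1, 0 of 32 passed in each comparison (0.196%, 0.93% and 0.728% of all genes did), and the counts at an unadjusted p under 0.05 were 12, 3 and 6 (11.4%, 9.08% and 11.3% of all genes).

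**Figure D3:**
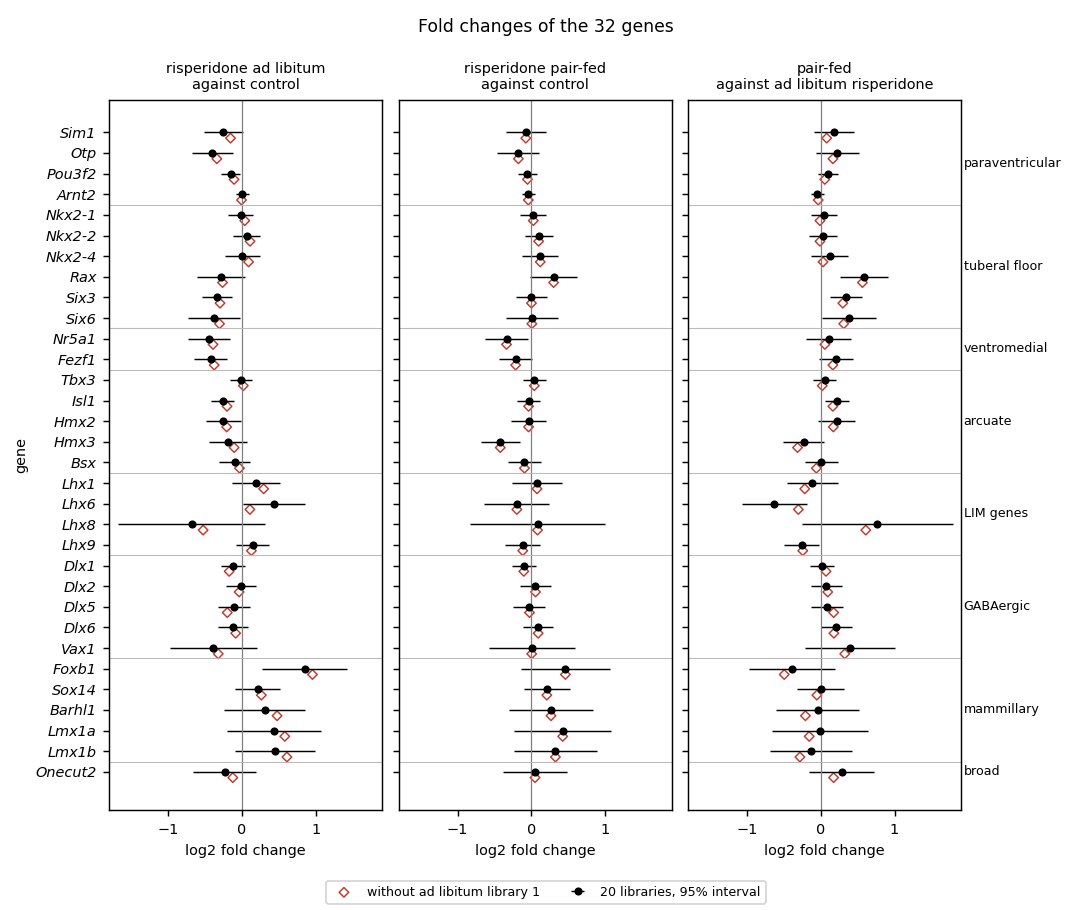
Points are edgeR log2 fold changes of the 32 genes in 3 comparisons with 95% intervals over all 20 libraries, and open diamonds the value without ad libitum library 1. Ad libitum against control, the 5 mammillary genes lie right of 0 and the 2 ventromedial genes left of it, with and without that library; Lhx6 moves from 0.44 to 0.11.

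The factors of the paraventricular and supraoptic nuclei had lower means in the ad libitum group, apart from Arnt2. Otp, which specifies the neurons that make vasopressin, oxytocin, corticotropin- and thyrotropin-releasing hormone, ranged from 38.4 to 52 CPM in controls (median 43.3), from 24.3 to 42.5 ad libitum (median 30.4) and from 25.1 to 48.9 pair-fed (median 40.5). Of the 7 ad libitum libraries, 5 were below the lowest control and 2 lay inside the control range. The log2 fold change of Otp ad libitum against control was −0.40 ± 0.13 (SE; adjusted p = 0.233), and −0.34 without library 1. Sim1, the factor whose loss in mice removes these neurons, had 11.5 to 14.8 CPM in controls (median 13.5), 6.35 to 14.2 ad libitum (median 11.7) and 9.96 to 15.3 pair-fed (median 12.4). Library 1 had the lowest Sim1 of all, and without it the log2 fold change went from −0.26 to −0.16. Pou3f2 (Brn-2), which acts downstream of Sim1 in these cells, differed by −0.15 ± 0.06 (adjusted p = 0.301), and Arnt2 by 0.01 ± 0.04, with a 95% interval from −0.08 to 0.09. Without library 1 the Pou3f2 value was −0.11. Pair-fed against control all 4 were below 0, from −0.18 for Otp (−0.08 without pair-fed library 3) to −0.04 for Arnt2.

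In the floor of the tuberal hypothalamus, the Nkx2 genes and Six3, Six6 and Rax gave different pictures. Nkx2-1, Nkx2-2 and Nkx2-4, which are set up ventrally by Sonic hedgehog, had log2 fold changes of −0.02, 0.06 and 0.00 ad libitum against control, each with a 95% interval that reached no farther than 0.25 from 0, and 0.04, 0.11 and 0.09 without library 1. Six3, a factor of the anterior forebrain that holds back Wnt signals, had 25.4 to 32.5 CPM in controls (median 29.1), 18.1 to 28.6 ad libitum (median 23.2) and 21.5 to 35.9 pair-fed (median 29.2). The lowest control was above 6 of the 7 ad libitum libraries. The log2 fold change of Six3 was −0.34 ± 0.10 ad libitum against control (adjusted p = 0.189), 0.00 ± 0.10 pair-fed against control, and 0.34 ± 0.10 pair-fed against ad libitum (adjusted p = 0.173). Its close relative Six6, known for the eye, the pituitary and gonadotropin-releasing hormone neurons, had 6.44 to 10.2 CPM in controls (median 8.2), 4.41 to 9.62 ad libitum (median 5.85) and 4.75 to 11.4 pair-fed (median 8.23). The Six6 values were −0.38 ± 0.17 ad libitum against control (adjusted p = 0.346) and 0.01 ± 0.17 pair-fed against control. Without library 1 the ad libitum values against control were −0.298 for Six3 and −0.305 for Six6.

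Rax had the smallest adjusted p of the 32 in the comparison of the feeding conditions. It is needed for the ventral hypothalamus to form and in the adult is made by tanycytes. Controls had 2.31 to 3.46 CPM (median 2.5), the ad libitum group 1.41 to 2.66 (median 2.14) and the pair-fed group 2.28 to 4.06 (median 3.64). Of the 6 pair-fed libraries, 4 were above all 7 controls and 2 were just below the lowest control. These 2 had 2.29 and 2.28 CPM (40 and 42 counts), and the lowest control had 2.31 CPM (41 counts). Pair-fed against ad libitum the log2 difference was 0.59 ± 0.16 (adjusted p = 0.112; 6 of 6 above the ad libitum mean), and 0.57 without ad libitum library 1 (adjusted p = 0.134). A list of 4 genes of ependyma, the ciliated lining of the same ventricle, summed to 37.7 to 44.7 CPM in controls, 25.2 to 39.8 ad libitum and 35.6 to 48.3 pair-fed. All 4 were lower ad libitum against control (median −0.32) and higher pair-fed against ad libitum (median 0.34), 0 of 4 passed, and their part in the Rax values was not tested. At 10 to 73 counts per library, Rax is one of the less deeply counted genes of the list. Exons of Raxos1 on the opposite strand cover 27.44% of its exon bases, and without the strand setting of the counting, which is not given in the sources used here, reads of the overlap cannot be assigned.

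The 2 ventromedial genes were lower together in the ad libitum group. Fezf1, a zinc finger repressor that is maintained in ventromedial neurons, had 27.3 to 34.9 CPM in controls (median 31.4), 19 to 28.5 ad libitum (median 23.8) and 19 to 34.5 pair-fed (median 27.5). Of the 7 ad libitum libraries, 6 were below the lowest control and all 7 below the control mean. The log2 fold change was −0.42 ± 0.11 (adjusted p = 0.134), and −0.38 without library 1 (adjusted p = 0.149). DESeq2 called it (−0.42, adjusted p = 0.0367, with 0.485% of all genes called by that tool). Nr5a1, without which the nucleus does not form properly, had 20 to 27 CPM in controls (median 23.3), 13.1 to 25.6 ad libitum (median 16) and 12.4 to 24.2 pair-fed (median 19.3). In the ad libitum group 5 libraries lay at 13.1 to 16.5 CPM, under the lowest control, while libraries 3 and 4 had 25.6 and 23. The Nr5a1 log2 fold changes were −0.45 ± 0.14 ad libitum (adjusted p = 0.201) and −0.34 ± 0.14 pair-fed against control (adjusted p = 0.637). Without library 1 the ad libitum value of Nr5a1 was −0.39. Among 4 genes active in adult ventromedial neurons, Adcyap1, Nptx2, Fam19a2 and Cbln1, 2 were higher and 2 lower ad libitum against control and 0 passed. Adcyap1, which encodes the peptide PACAP, had 64.8 to 122 CPM ad libitum against 82.8 to 98.8 in controls. Nptx2 had 39.5 to 45.5 CPM in controls and 30 to 37.1 pair-fed, without overlap (1.2% of all genes). It was 64 CPM in ad libitum library 1 and 33.5 to 38.8 in the other ad libitum libraries. Library 1 was also at 51.9 CPM for Fam19a2 and at 63.7 for Cbln1, against control ranges of 18.7 to 24.4 and 117 to 130.

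**Figure D4:**
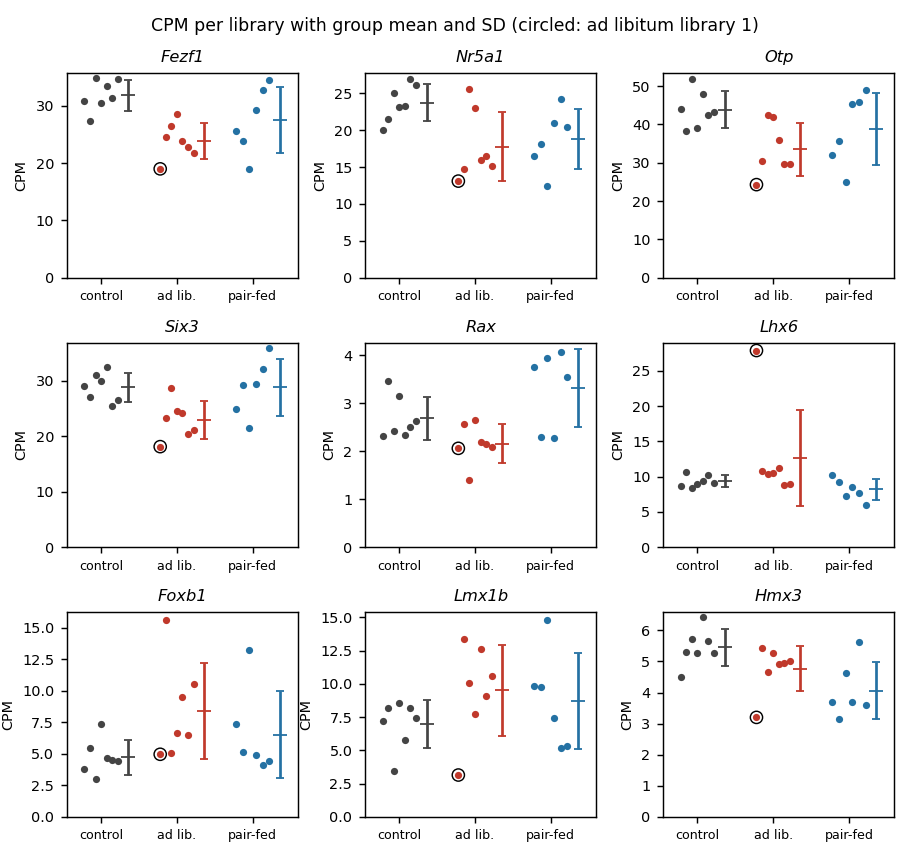
CPM of 9 genes in each library (points), with the group mean and SD beside them; each vertical axis starts at 0 and ad libitum library 1 is circled. For Fezf1 and Six3, 6 of the 7 ad libitum libraries lie below the lowest control. For Foxb1, 3 lie above the highest control. For Rax, 4 pair-fed libraries lie above the controls and 2 just below the lowest control.

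All 5 arcuate genes had negative log2 fold changes ad libitum against control over 20 libraries, and 4 of 5 did without ad libitum library 1, where Tbx3 was 0.02. Isl1, a LIM-homeodomain factor that switches on Pomc, had 30.5 to 35.2 CPM in controls (median 32.9), 21 to 31.1 ad libitum (median 28.2) and 28.4 to 35.9 pair-fed (median 32). Its log2 fold change was −0.26 ± 0.08 ad libitum against control (adjusted p = 0.189; 7 of 7 below the control mean), −0.20 without library 1, and −0.04 ± 0.08 pair-fed. Bsx, needed for full Agrp expression, and Tbx3, which maintains the identity of Pomc and Agrp neurons, differed by −0.10 and −0.02 ad libitum, and Bsx by −0.03 without library 1. The neighbouring genes Hmx2 and Hmx3 lie 3.8 kb apart on chromosome 7, and both act in neurons that make growth hormone-releasing hormone. Hmx2 had 2.42 to 3.86 CPM in controls (median 3.41), 2.24 to 3.08 ad libitum (median 2.87) and 2.75 to 3.62 pair-fed (median 3.1). Hmx3 had 4.5 to 6.42 CPM in controls (median 5.3), 3.2 to 5.42 ad libitum (median 4.95) and 3.15 to 5.62 pair-fed (median 3.69). The pair-fed group had the lower Hmx3: 4 of its 6 libraries were below the lowest control. The log2 fold change of Hmx3 pair-fed against control was −0.42 ± 0.13 (adjusted p = 0.278), whereas that of Hmx2 was −0.04 ± 0.12. Limma's voom weights called Hmx3 in that comparison (−0.47, adjusted p = 0.018, with 1.25% of all genes called). Ghrh itself, the releasing hormone, had 13.1 to 19.7 CPM in controls, 8.34 to 14.4 ad libitum and 10.4 to 15.6 pair-fed, and 0 of the 4 arcuate peptide genes tested (Pomc, Agrp, Npy and Ghrh) passed.

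The 4 LIM-homeobox genes of the suprachiasmatic, lateral and preoptic areas differed from each other in direction. Lhx6, a factor of GABAergic neurons of the zona incerta and lateral hypothalamus and also of cortical interneurons, had 8.47 to 10.7 CPM in controls (median 9.17), 8.82 to 27.9 ad libitum (median 10.5) and 6 to 10.3 pair-fed (median 8.17). The value of 27.9 was ad libitum library 1, the library with the high cortex and hippocampus genes, and the other 6 lay at or below 11.2. Vip, a peptide gene of both suprachiasmatic neurons and cortical interneurons, was 16.7 CPM in that library and 0.911 to 2.03 in the other 19. The part of cortical tissue in the Lhx6 value was not tested. Without the library the log2 fold change of Lhx6 ad libitum against control went from 0.44 to 0.11, and pair-fed against ad libitum it went from −0.63 ± 0.21 (adjusted p = 0.215) to −0.30 ± 0.10 (adjusted p = 0.218). Lhx1, required for the coupling of suprachiasmatic neurons, differed by 0.19 ± 0.16 ad libitum against control, and by 0.29 ± 0.14 without library 1 (adjusted p = 0.414), with 12.7 CPM in ad libitum library 2 and 12.1 in pair-fed library 3 against 7.1 to 8.11 in controls. Lhx9, which helps to specify hypocretin neurons, had 5 of 7 ad libitum libraries above the highest control and a log2 fold change of 0.14 ± 0.11 (adjusted p = 0.599). Hcrt, the hypocretin gene, had 368 to 521 CPM in controls, 184 to 450 ad libitum and 319 to 422 pair-fed, and did not pass (−0.38 ± 0.13 ad libitum, adjusted p = 0.221). The Hcrt value of 184 was ad libitum library 1, and the other ad libitum libraries had 328 to 450 CPM. Lhx8, at most 21 counts in a library, had log2 fold changes of −0.68 ± 0.48 and 0.08 ± 0.44 in the 2 risperidone groups against control.

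The Dlx genes, which drive the GABAergic programme and lie in 2 facing pairs, varied little. Dlx1 and Dlx2 are 9.4 kb apart on chromosome 2, and Dlx5 and Dlx6 are 9.2 kb apart on chromosome 6. Ad libitum against control their log2 fold changes were −0.12, −0.02, −0.11 and −0.12 for Dlx1, Dlx2, Dlx5 and Dlx6. Without library 1 they were −0.17, −0.04, −0.20 and −0.09, with adjusted p values of 0.336 or more. Pair-fed against control they lay between −0.10 and 0.09. Dlx6 had the smallest unadjusted p of the group: 6.76 to 8.94 CPM in controls (median 7.38), 5.32 to 7.75 ad libitum (median 7.36) and 6.21 to 9.3 pair-fed (median 8.18). More Dlx6 was counted in 4 of the 6 pair-fed libraries than in any ad libitum library, with a log2 difference of 0.21 ± 0.10 (adjusted p = 0.363). In ad libitum library 1 the facing pair parted: Dlx5 was at its highest of all 20 libraries, 8.53 CPM, while Dlx6 was 5.81, below all 7 controls. The antisense transcript Dlx6os1, which spans Dlx6 on the other strand, was 12.8 CPM in library 1, 10.8 in library 3 and 4.05 to 7.24 in the rest. Vax1, a factor of the preoptic area and of gonadotropin-releasing hormone neurons, ranged more widely, from 0.864 CPM in pair-fed library 3 to 4.18 in pair-fed library 5. Its log2 fold changes against control were −0.39 ± 0.28 ad libitum and 0.00 ± 0.28 pair-fed.

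The 5 mammillary and caudal genes had positive log2 fold changes in both risperidone groups against control, with medians of 0.43 ad libitum and 0.33 pair-fed, and 0 of 5 passed in either. The pair-fed values depended on library 3: without it they were 0.13 for Foxb1 (0.46 with it), 0.02 for Barhl1 (0.27), 0.16 for Lmx1a (0.42), 0.11 for Lmx1b (0.33) and 0.30 for Sox14 (0.21). Foxb1, needed for the mammillary body to form its tract, had 3 to 7.38 CPM in controls (median 4.48), 4.96 to 15.6 ad libitum (median 6.68) and 4.12 to 13.2 pair-fed (median 5.02). In ad libitum libraries 1 to 7 Foxb1 was 4.96, 15.6, 5.07, 6.68, 9.48, 6.52 and 10.5 CPM. All 7 exceeded the control mean of 4.74, and 3 exceeded the highest control. The log2 fold change was 0.85 ± 0.28 (adjusted p = 0.222), and 0.96 without library 1 (adjusted p = 0.16). Over 30 alternative settings, with each library left out among them, this value ran from 0.62 to 1.04. Pair-fed, the Foxb1 value against control was 0.46 ± 0.29, and 1 library, number 3, had 13.2 CPM where the other 5 had at most 7.38. An antisense transcript, B230323A14Rik, covers 14.01% of the Foxb1 exon bases.

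Barhl1 and the LIM-homeodomain genes Lmx1a and Lmx1b mark subthalamic and caudal hypothalamic neurons next to the mammillary body, and their levels also ranged widely. Barhl1 had 2.47 to 4.48 CPM in controls (median 3.47), 1.39 to 6.21 ad libitum (median 4.81) and 2.41 to 7.77 pair-fed (median 4.08). Lmx1a had 2.1 to 5.35 CPM in controls (median 4.92), 2.24 to 9.61 ad libitum (median 6.13) and 2.25 to 10.5 pair-fed (median 5.55). More Lmx1b than in any control was found in 5 of 7 ad libitum libraries, with values of 3.42 to 8.58 CPM in controls (median 7.44), 3.14 to 13.4 ad libitum (median 10.1) and 5.18 to 14.8 pair-fed (median 8.62). Ad libitum library 1 was at the bottom of its group for all 3 genes. Without it the log2 fold changes ad libitum against control went from 0.31 to 0.48 for Barhl1, from 0.43 to 0.58 for Lmx1a and from 0.45 to 0.61 for Lmx1b, the last with an adjusted p of 0.261. Over 30 alternative settings they ran from 0.21 to 0.55, from 0.25 to 0.67 and from 0.33 to 0.62 in the same order. Sox14, a factor of GABAergic cells of the caudal hypothalamus and thalamus, differed by 0.21 ± 0.15 in each risperidone group. Sox14 did not share the order of the others: pair-fed library 3, the highest for Foxb1, Barhl1, Lmx1a and Lmx1b in its group, had the lowest Sox14 of its group at 2.86 CPM. Onecut2, a broadly expressed factor and the last of the list, had 10 to 17.1 CPM in controls (median 13.6), 5.56 to 23.2 ad libitum (median 11) and 8.69 to 17.6 pair-fed (median 14.5). Its extremes were ad libitum libraries 1 and 3, and its log2 fold change was −0.23 ± 0.21 ad libitum and 0.05 ± 0.21 pair-fed against control. The ad libitum value was −0.13 without library 1 and −0.42 without library 3.

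Some genes of the same nucleus, region or family varied together between libraries of a group. The pairs were chosen with earlier results of these data known, and gene pairs at large were not correlated for comparison. For this, 10 pairs were correlated over the 20 libraries on log2 CPM after the group mean was taken off, with a two-sided permutation p (100000 permutations within groups) adjusted over the 10. Pearson's r was 0.88 for Lmx1a and Lmx1b (Spearman's rho 0.87; p = 4e-05, adjusted p = 2e-04; rho adjusted p = 1e-04). For Foxb1 and Barhl1 r was 0.81 (rho 0.88; p = 5e-05, adjusted p = 2e-04). The rho of that pair had a permutation p of 1e-05, the smallest these permutations can give. Nr5a1 and Fezf1 had r = 0.82 (rho 0.79; p = 6e-05, adjusted p = 2e-04), and Six3 and Six6 r = 0.75 (rho 0.70; p = 0.00138, adjusted p = 0.00345). After leaving out the 2 libraries farthest from the median of the first gene, r was 0.84, 0.77, 0.68 and 0.63 in this order. In each of these 4 pairs r was above 0 within all 3 groups, from 0.11 for Six3 and Six6 in controls to 0.98 for Lmx1a and Lmx1b in controls.

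The other 6 pairs had smaller r over the 20 libraries, and 3 of them lost or gained a call without ad libitum library 1. Sim1 and Otp had r = 0.59 (rho 0.64; p = 0.0134, adjusted p = 0.0223) and Hmx2 and Hmx3 r = 0.53 (rho 0.42; p = 0.0121, adjusted p = 0.0223; rho adjusted p = 0.101). Without ad libitum library 1 these became 0.48 and 0.41, each with an adjusted permutation p of 0.136, and without the 2 farthest libraries they were 0.44 and 0.41. Within the groups that do not hold that library, r was 0.58 in controls and 0.60 pair-fed for Sim1 and Otp, and 0.46 and 0.49 for Hmx2 and Hmx3. Dlx5 and Dlx6 went the other way, from r = 0.37 (rho 0.50; p = 0.16, adjusted p = 0.2) to 0.77 without library 1 (rho 0.81; permutation p = 1e-04, adjusted p = 0.000333), with 0.82 within controls and 0.73 within the pair-fed group. Dlx1 and Dlx2 had r = 0.39 (rho 0.36; p = 0.133, adjusted permutation p = 0.191). Lhx6 and Lhx8 had r = −0.21 (rho −0.38; p = 0.484, adjusted permutation p = 0.538), and 0.17 without the 2 farthest libraries. Sim1 and Foxb1, 1 gene of the anterior and 1 of the caudal hypothalamus, had r = 0.10 (rho −0.11; p = 0.72, adjusted permutation p = 0.72), and −0.19 without library 1. The sign of this r differed between groups: −0.667 in controls, 0.503 ad libitum (0.218 without library 1) and −0.365 pair-fed. These values within groups have no test.

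**Figure D5:**
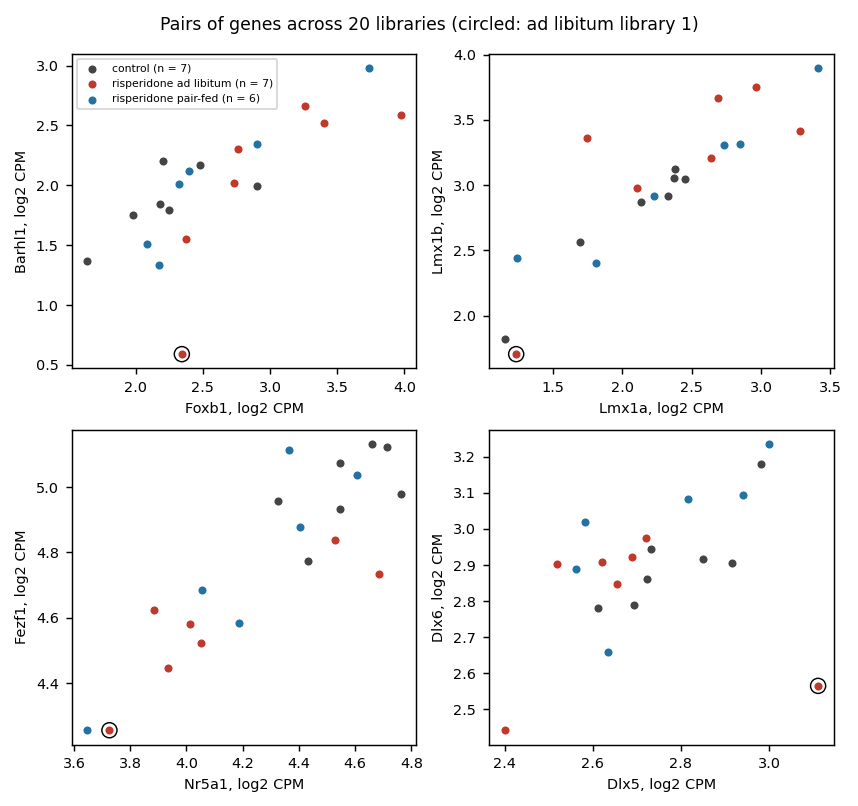
Log2 CPM of 4 pairs of genes in each of the 20 libraries, coloured by group, with ad libitum library 1 circled. Foxb1 with Barhl1, Lmx1a with Lmx1b and Nr5a1 with Fezf1 lie along rising bands that hold all 3 groups; Dlx5 and Dlx6 do so except for the circled library.

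The 4 libraries highest in caudal genes had less Avp, an anterior peptide gene, than 3 of the 4 lowest. Summed over the 5 mammillary and caudal genes, the highest libraries were pair-fed 3 (49.2 CPM), ad libitum 2 (46.8), ad libitum 7 (40.1) and ad libitum 5 (39.2). Avp, the vasopressin gene of paraventricular, supraoptic and suprachiasmatic neurons, was 8.91, 34.9, 24.2 and 89.4 CPM in these 4. The lowest sums were control 3 (14.3), ad libitum 1 (15), pair-fed 6 (18.7) and control 5 (20.1), where Avp was 206, 31, 193 and 244 CPM. Ad libitum library 1 was low for both. The control range of Avp was 57.3 to 244 CPM. Ad libitum library 5 and pair-fed library 6 lay inside it, and controls 3 and 5 are part of it. A list of 5 midbrain dopamine genes, of which 2 were tested, was also summed. It gave 71.7, 96.6, 63.2 and 82.3 CPM in the first 4 libraries and 57.9, 33.8, 60.8 and 59.3 in the last 4. Controls had 54.4 to 63.9 CPM, and pair-fed library 1 had 81.1 at a caudal sum of 32.7. Most of the control sum was Th, at 48.4 to 56 CPM. What share of this sum, or of the caudal sum with its Lmx1a and Lmx1b, came from neighbouring tissue was not tested. Slc6a3, the other gene tested, was 16.9, 28.8, 11.8 and 17.1 CPM in the first 4 libraries and 4.1, 1.75, 4.56 and 4.63 in the last 4. Both kinds of library occur among the risperidone groups, and 3 of the 4 with the highest sums were from the ad libitum group. This ordering was seen in the values and has no test.

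Of 4 peptide genes of the anterior nuclei (Avp, Oxt, Trh and Crh), 3 had lower ad libitum means and 0 passed. Avp was 57.3 to 244 CPM in controls, 24.2 to 175 ad libitum and 8.91 to 233 pair-fed, with a log2 fold change of −1.12 ± 0.52 ad libitum against control (adjusted p = 0.367). Oxt, encoding oxytocin, gave −0.99 ± 0.46 (adjusted p = 0.367) and Trh, encoding thyrotropin-releasing hormone, −0.42 ± 0.17 (adjusted p = 0.31). Crh, encoding corticotropin-releasing hormone, was on the other side of 0, at 0.18 ± 0.10 (adjusted p = 0.438), from a mean of 4.06 CPM in controls and 4.59 ad libitum. In the ad libitum group Avp was 24.2 to 34.9 CPM in libraries 1, 2, 6 and 7, below the lowest control, and 89.4 to 175 in the other 3. The part of the slices' rostral and caudal limits, and of neighbouring tissue, in these values was not tested.

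A further list of 30 transcription factors of the hypothalamus and its neighbours was read in the same way, and all 30 were tested. Ad libitum against control 18 were higher and 12 lower (median 0.04), pair-fed against control 27 were higher and 3 lower (median 0.09), and 0 of 30 passed in any comparison. Lhx5, a LIM factor with a known part in forming the mammillary area, had 7.94 to 10.3 CPM in controls, 5.81 to 9.5 ad libitum and 9.88 to 12.2 pair-fed. All 6 pair-fed libraries had more Lhx5 than all 7 ad libitum ones, with a log2 difference of 0.33 ± 0.09 (adjusted p = 0.146). Groups did not overlap in this comparison for 0.632% of all genes. The gap for Lhx5 was narrow, from 9.5 to 9.88 CPM, and the lowest ad libitum values were libraries 1 (5.81) and 3 (7.46). Pou3f1, a POU factor related to Pou3f2, had 6 of 7 ad libitum libraries above the highest control (0.34 ± 0.10, adjusted p = 0.189). Zfhx3, a zinc finger homeobox gene with a known part in circadian timing, was at 167 CPM in ad libitum library 3 against 42 to 81.9 elsewhere. Nr2f2, a nuclear receptor gene, had 117 CPM in ad libitum library 1 against 60.3 to 74.7 elsewhere.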

How the data were processed

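RNA was sequenced from 20 libraries of mouse hypothalamus slices. The values are whole-number counts per Ensembl gene, deposited by the authors in 1 table. STAR, featureCounts, DESeq2 and the build GRCm38 (mm10) are named in the submitters' processing notes, with no version, while the strand setting and annotation release were not given in the sources used here. Symbols, positions and exon lengths came from GENCODE vM21, and 55230 of 55471 IDs matched. The 241 others kept their ID.

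Counts were scaled with edgeR 4.0.16 (TMM, R 4.3.3) and genes kept by filterByExpr at its defaults (minimum count 10), which left 17893. One quasi-likelihood model with 3 groups over all 20 libraries gave each comparison, two-sided, with Benjamini-Hochberg adjustment over all genes tested and a threshold of 0.05. The common biological coefficient of variation was 11.26%. CPM use the scaled library sizes. Pairs of genes were compared on log2 CPM with a prior count of 2. Levels of different genes were compared per kilobase of merged exons. A count of 0 was given an upper limit of 3 counts, which covers counting error only.

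The 32 genes, the role groups, the 10 pairs and the other lists were chosen with earlier results of these data known, so that no count over them is independent evidence. Values by group are given for genes with an adjusted p under 0.05, for the gene of each role group with the smallest unadjusted p, and for genes of pairs that passed. From the other lists, genes are named if called, and otherwise at most the 2 with the smallest unadjusted p and the 2 with the highest CPM. The cortex and hippocampus genes named and further genes named outside these rules were chosen after their values were seen. No 2 libraries of a group agreed within sampling noise (lowest chi-square per degree of freedom 2.64 over 57 pairs). The model was tested on simulated data. Alternatives used DESeq2 1.42.0, limma 3.58.1, other scalings and filters, and each library left out.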

Additional observations from a re-analysis of the deposited data

Results flagged for a closer look

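In each group the highest and the lowest library of each of the 32 genes were compared with the others by Dixon's criterion, in 96 sets of values. In 9 of the 96 a library stood apart, and chance gives this in about 1 of 20 sets. Ad libitum library 1 accounted for 3 of the 9. It had the highest Lhx6 of its group (27.9 CPM, the next 11.2) and the highest Dlx5 (8.53 CPM, the next 6.48). It also had the lowest Hmx3 (3.2 CPM, the next 4.65).

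Pair-fed library 3 accounted for 3 more. It was highest for Foxb1 (13.2 CPM, the next 7.38) and Lhx1 (12.1 CPM, the next 8.53), and lowest for Lhx8 (0.054 CPM, the next 0.671). Ad libitum library 3, the library with the lowest total count, was highest for Onecut2 (23.2 CPM, the next 13.1). In the controls, library 4 was lowest for Lhx9 (5.18 CPM, the next 6.41) and library 3 was highest for Dlx6 (8.94 CPM, the next 7.59).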

How the results depend on the processing

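Under 30 alternative settings the number of the 32 genes with an adjusted p under 0.05 stayed at 0 in all 3 comparisons, with 2 exceptions. DESeq2 gave 1 gene, Fezf1, ad libitum against control (−0.42, adjusted p = 0.0367; over all settings 0.0367 to 0.245), and limma's voom with quality weights gave 1 gene, Hmx3, pair-fed against control (−0.47, adjusted p = 0.018; over all settings 0.018 to 0.544). Leaving out each library in turn gave 0 genes in each comparison. Over all genes, against 11, 87 and 71 calls, DESeq2 gave 102, 133 and 166, voom 51, 223 and 139, each comparison's 2 groups alone 3, 245 and 31, and leaving out 1 library 0 to 35, 66 to 166 and 39 to 130. The upper ends of these 3 ranges came without ad libitum library 1. Without ad libitum libraries 1 and 3 the calls were 48, 250 and 142. Other scalings put the median of all genes between −0.01 and 0.01. Lhx8 was not tested with a mean of at least 1 CPM, nor ad libitum against control with those 2 groups alone, and DESeq2 gave it no adjusted p in the comparisons of the pair-fed group.

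Groups share replicate numbers. With the replicate number as a block the count was 0 of 32 in each comparison, and 1, 65 and 48 over all genes. Of 19 pairs of libraries with the same number, 2 correlated above 0.1 (−0.158 to 0.304), and 0 of 20 libraries correlated best with its own number, so the numbers were not taken as pairing. Depth limits Rax and Lhx8, at 10 to 73 and 0 to 21 counts per library.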

Other observations

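The spread among the 7 control libraries alone differed between the role groups. The SD of log2 CPM in controls was 0.48 for Lmx1a, 0.46 for Lmx1b, 0.40 for Foxb1, 0.28 for Barhl1 and 0.25 for Sox14. Among all genes tested these SDs stood at the percentiles 96, 95.1, 92.1, 82.4 and 78.2. Lhx8 stood higher, at 98.4, with an SD of 0.60 at few counts. Arnt2 (0.07, percentile 19.8), Lhx1 (0.07, percentile 22.2) and Isl1 (0.09, percentile 33.3) were among the more even genes. The SD of Lhx1 was 0.43 ad libitum and 0.34 pair-fed, with ad libitum library 2 and pair-fed library 3 the highest of their groups. Percentiles over all genes do not take account of expression level, which also sets the counting error.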
